A study of Homo sapiens with 10 samples.

Results

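The aminoacyl-tRNA synthetases described here are 36 listed genes of the 61533 in the count tables, chosen by name as the enzymes that charge tRNAs in the cytosol and in mitochondria. Names ending in 1 (17 genes) stand for the cytosolic enzymes and names ending in 2 (16 genes) for the mitochondrial ones. FARSA and FARSB, the subunits of the cytosolic phenylalanine enzyme, and TARS3, a further threonine enzyme, end in neither and form a group of 3.

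Each synthetase joins an amino acid to its matching tRNAs, the step that ties the genetic code to protein synthesis. Human cells carry largely separate nuclear genes for the cytosolic and the mitochondrial enzymes, although GARS1 and KARS1 each encode both forms and were kept with the cytosolic class by name. Several cytosolic synthetases assemble with scaffold proteins into the multisynthetase complex, and a subset of the cytosolic genes is known to respond to ATF4, the transcription factor of the amino acid response.

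The RNA-seq compared T24, an established line of human bladder cancer cells, with T24R2, its cisplatin-resistant derivative, in 5 libraries per line labelled day 3, to learn which transcripts differ between sensitive and resistant cells. T24R2 was derived from T24 by serial exposure to cisplatin and is a single derived line. The labels give the same medium for both lines (RPMI with serum and antibiotics) and list no drug, whereas the methods of the study keep T24R2 in cisplatin, so line and drug exposure cannot be told apart. No label says whether libraries of a line came from separate cultures, so all p-values measure the spread between these libraries, which may be technical.

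Total counts ranged from 9257843 to 10840954 per library, and 16181 genes passed the filter on low counts. The median log2 fold change (LFC, T24R2 minus T24) over all tested genes was 0.01. A gene was called at an adjusted p under 0.05 and an absolute LFC over 0.5 (quasi-likelihood test of edgeR, Benjamini-Hochberg over all 16181 genes), which took in 24.9% of tested genes as higher and 26.5% as lower in T24R2. Of the urothelial markers, the keratin genes KRT7 and KRT18 were abundant in both lines, but UPK1B, UPK3A and KRT20 had at most 3 counts in any library, and KRT19 and GATA3 had at most 5 in T24R2. The summed urothelial markers ran from 3557 to 3954 TMM-scaled counts-per-million (CPM) in T24 and from 2007 to 2200 in T24R2, and the 6 that could be tested were all called lower. Fibroblast markers summed to at most 11.2 CPM and immune markers to at most 2.98 CPM. Endothelial markers summed to between 225.8 and 277.5 CPM in T24, nearly all CDH5, against at most 2.50 in T24R2. The part of these differences in the results was not tested. Both are cell lines, and in their bulk RNA fewer cells expressing a marker cannot be told apart from less RNA per cell.

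Synthetase transcripts lay higher in T24R2 more often than lower, mostly by less than the called size. Of the 35 synthetases that could be tested, 10 were called higher and 3 lower, 28.6% and 8.57%, beside the 24.9% and 26.5% over all genes. The called share on the higher side was thus near that of all genes, and the share on the lower side was smaller. With no minimum on size, 22 members (62.9%) passed the edgeR test as higher and 6 (17.1%) as lower, against 37.9% and 37.6% of all tested genes, and 7 did not pass. Every T24R2 library lay above every T24 library for 18 members (51.4%) and below for 4 (11.4%), where the values over all genes were 29.9% and 31.3%. The median LFC was 0.28. These counts depend on the scaling of the libraries: without any scaling factor, 15 members were called higher and 2 lower, while the shares over all genes moved to 32.2% higher and 21.2% lower and their median LFC to 0.18.

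**Figure D1:**
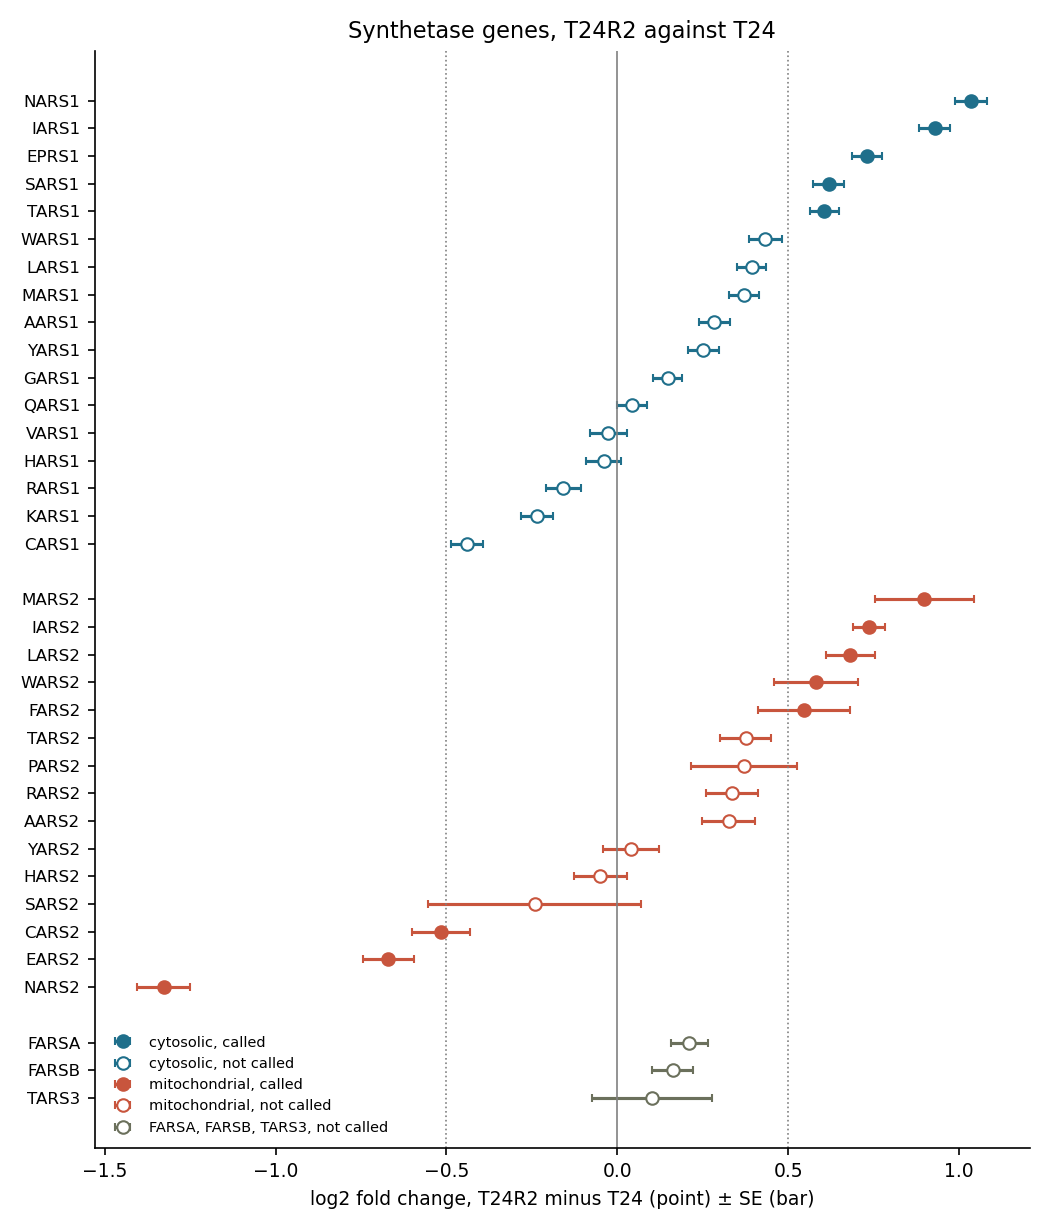
The horizontal axis gives the log2 fold change (T24R2 minus T24) of the 35 tested synthetases with its SE as a bar, and the vertical axis the gene, grouped into cytosolic, mitochondrial and other. Filled points were called; dotted lines mark the 0.5 limit. The cytosolic genes reach from -0.44 to 1.03 with no called fall, and the mitochondrial genes reach from -1.33 to 0.90.

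VARS2, the mitochondrial valine enzyme, had 0 counts in all 10 libraries, which allows up to 3 counts in each for counting error alone, and was the member left out of the test. It lies at chr6:30914205-30926459 (+, hg38) and shares 63.0% of its exon bases with a gene annotated on the same strand, which also had 0 counts. SARS2, the mitochondrial serine enzyme, shares 48.2% with such a gene and had only 9 to 21 counts per library. Its LFC of -0.24 had an SE of 0.31, so a difference of this size was not detectable at this depth. By default featureCounts leaves out fragments that fall in exons of more than 1 gene, and the values of both enzymes are uncertain.

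The asparagine enzyme showed the largest rise in the cytosolic class. NARS1 (chr18:57600656-57622213, -) measured 129.6, 153.0, 128.7, 143.0 and 138.9 CPM in the T24 libraries and 279.8, 272.4, 289.4, 289.6 and 289.7 in T24R2. The lowest T24R2 library lay far above the highest of T24. Its LFC was 1.03 ± 0.05 (SE; edgeR adjusted p = 6.9e-22), and it was the only synthetase higher by more than 1 on the log2 scale.

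IARS1, which charges isoleucine tRNA and belongs to the multisynthetase complex, measured 229.9, 238.2, 249.9, 249.5 and 243.8 CPM in T24 and 434.8, 441.5, 496.8, 461.6 and 470.8 in T24R2. The ranges were separate, with an LFC of 0.93 ± 0.04 (edgeR adjusted p = 2e-21). EPRS1, a single protein that charges both glutamate and proline tRNAs, measured 197.9, 193.8, 204.2, 202.9 and 188.6 CPM in T24 and 320.0, 320.8, 327.8, 335.1 and 334.6 in T24R2. Both lines were tight around their means, and the LFC was 0.73 ± 0.04 (edgeR adjusted p = 1.3e-18). SARS1, the serine enzyme, measured 157.6, 151.4, 150.9, 161.1 and 147.5 CPM in T24 and 248.8, 224.1, 245.2, 230.4 and 232.1 in T24R2. No library of the lines overlapped, and the LFC was 0.62 ± 0.05 (edgeR adjusted p = 1.9e-15). TARS1, the threonine enzyme, completed the called cytosolic genes, with means of 279.9 ± 7.65 (SD, n = 5) and 426.2 ± 20.3 CPM and an LFC of 0.61. In exact two-sided permutation tests of CPM, each of these 5 genes gave 0.00794, and no smaller value can be reached with 5 libraries per line.

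The other cytosolic genes moved less. WARS1 (tryptophan, LFC 0.43), LARS1 (leucine, 0.39), MARS1 (methionine, 0.37), AARS1 (alanine, 0.28), YARS1 (tyrosine, 0.25) and GARS1 (glycine, 0.15) passed the adjusted p of edgeR as higher but not the size limit, and in each of them every T24R2 library lay above every T24 library. CARS1, the cysteine enzyme, went the other way in every library, from 191.3 ± 6.93 to 141.0 ± 7.44 CPM (LFC -0.44). KARS1 (lysine, -0.23) and RARS1 (arginine, -0.16) also passed the adjusted p as lower, with overlapping libraries. Without a scaling factor neither passed, at -0.07 for KARS1 (edgeR adjusted p = 0.15) and 0.01 for RARS1 (0.92), and RARS1 did not pass with upper-quartile scaling either (-0.08, edgeR adjusted p = 0.13). QARS1 (glutamine, 0.04), VARS1 (valine, -0.03) and HARS1 (histidine, -0.04) did not pass, and the last 2 turned positive without a scaling factor (0.14 and 0.12) or with upper-quartile scaling (0.05 and 0.03). In all, 5 of 17 cytosolic genes were called higher (29.4%) and 0 lower, beside 24.9% and 26.5% of all tested genes. The share on the higher side was thus near that of all genes. By the adjusted p alone 11 were higher (64.7%) and 3 lower (17.6%), beside 37.9% and 37.6% of all tested genes. DESeq2 and limma-voom also called 0 lower, and the median LFC of the class was 0.28.

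**Figure D2:**
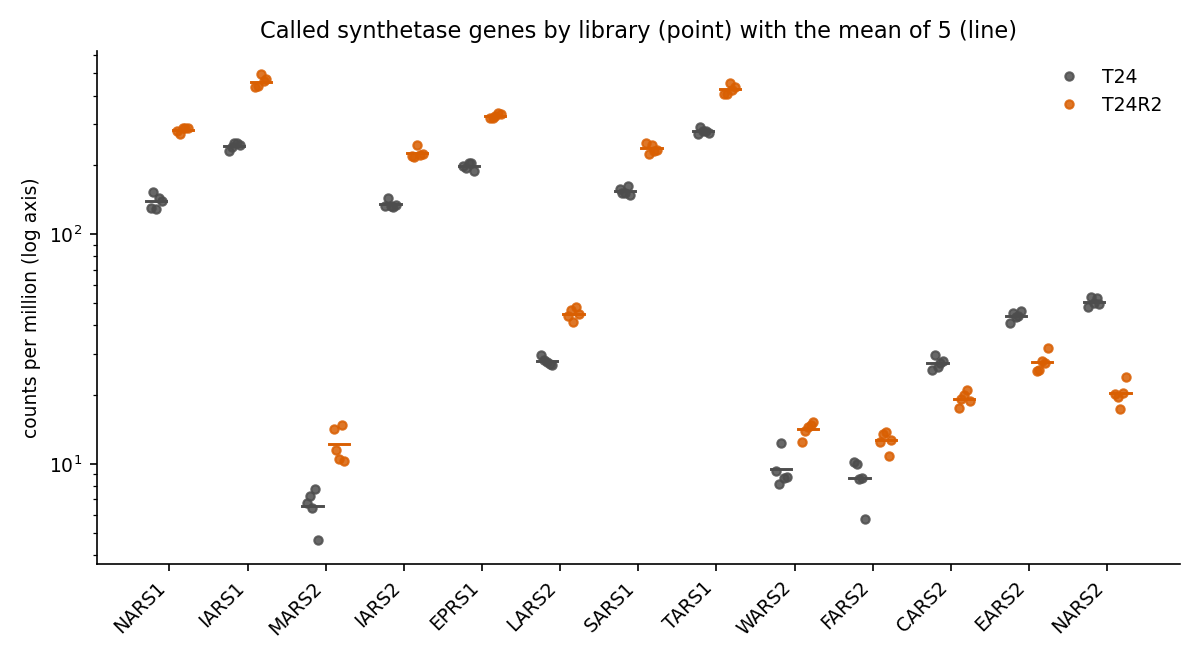
Points give CPM on a log axis in each library for the 13 called synthetases, ordered by log2 fold change, and short lines give the mean of 5 libraries. In each of the 13 genes the T24 and T24R2 points do not overlap, and NARS1, at the left, and NARS2, at the right, move in opposite directions.

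Among FARSA, FARSB and TARS3, none was called. FARSA, the largest of the 3, measured 87.60, 76.27, 78.96, 78.09 and 79.06 CPM in T24 and 95.33, 94.32, 85.32, 95.60 and 92.23 in T24R2. T24 replicate 1 lay above the lowest T24R2 library, and the LFC of 0.21 ± 0.05 passed the adjusted p of edgeR (0.00056) without reaching the size limit. FARSB, the partner subunit, gave 0.16, which passed the adjusted p except without T24 replicate 4 (0.12, edgeR adjusted p = 0.076), and TARS3, at 36 to 63 counts per library, gave 0.10 and did not pass.

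The mitochondrial class held rises as well as the largest falls of any synthetase. MARS2, which charges the methionine tRNA of mitochondria, measured 6.746, 7.259, 6.399, 7.744 and 4.644 CPM in T24 and 14.22, 11.44, 10.46, 14.70 and 10.32 in T24R2. The lines did not overlap, but this was a low gene with 43 to 165 counts per library, and its LFC of 0.90 carried an SE of 0.15 (edgeR adjusted p = 8.1e-07). IARS2, the mitochondrial isoleucine enzyme, measured 132.7, 143.0, 132.0, 131.4 and 133.6 CPM in T24 and 217.7, 215.5, 243.6, 221.1 and 223.0 in T24R2. Its LFC was 0.74 ± 0.05 (edgeR adjusted p = 1.7e-17), with 1 library in each line standing above the rest. LARS2, the leucine enzyme, measured 29.89, 28.40, 27.77, 27.21 and 26.79 CPM in T24 and 44.04, 46.47, 41.36, 47.94 and 44.94 in T24R2. The ranges were well apart and the LFC was 0.68 ± 0.07 (edgeR adjusted p = 3.8e-11).

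WARS2, the tryptophan enzyme, measured 9.341, 8.206, 12.34, 8.712 and 8.748 CPM in T24 and 12.39, 13.96, 14.49, 14.79 and 15.14 in T24R2. The separation was narrow, since T24 replicate 3 came close to the lowest T24R2 library, and the LFC was 0.58 ± 0.12 (edgeR adjusted p = 6.2e-05). FARS2, the phenylalanine enzyme, lay nearest the limit on the higher side, with an LFC of 0.55 ± 0.14 at 53 to 155 counts. Without T24 replicate 5 its LFC was 0.43 and it was no longer called.

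NARS2 (chr11:78435968-78574874, -), the mitochondrial asparagine enzyme, showed the largest change of any synthetase. It measured 48.26, 53.02, 50.28, 52.92 and 49.47 CPM in T24 and 20.19, 19.51, 17.37, 20.40 and 23.80 in T24R2, so that T24R2 held 39.9% of the T24 level. The LFC was -1.33 ± 0.08 (edgeR adjusted p = 1.7e-18). EARS2, which charges glutamate onto mitochondrial tRNAs, measured 41.10, 45.24, 43.65, 43.99 and 46.12 CPM in T24 and 25.42, 25.49, 28.02, 27.44 and 32.06 in T24R2. All T24R2 libraries lay lower, with an LFC of -0.67 ± 0.07 (edgeR adjusted p = 2.1e-10).

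CARS2, the mitochondrial cysteine enzyme, measured 25.53, 29.88, 26.40, 27.53 and 28.08 CPM in T24 and 17.52, 19.07, 19.87, 20.85 and 18.78 in T24R2. The lines were separate, but the LFC of -0.52 ± 0.09 (edgeR adjusted p = 1.2e-06) lay just past the limit. It was not called with upper-quartile scaling (-0.44), with no scaling factor (-0.35), on genes of at least 100 counts on average (-0.49), without T24 replicate 2 (-0.49) or without T24R2 replicate 1 (-0.48). CARS2 shares 127 exon bases with ING1 on the opposite strand, and ING1 had an LFC of -1.79. The counting used strand, but the sources do not settle whether the kit kept it, and mixing of reads between such partners was not tested.

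TARS2 (threonine, LFC 0.38), PARS2 (proline, 0.37), RARS2 (arginine, 0.34) and AARS2 (alanine, 0.33) passed the adjusted p of edgeR as higher without reaching the size limit. The libraries of PARS2 and RARS2 overlapped, and PARS2 (edgeR adjusted p = 0.03) no longer passed without T24 replicate 2 (0.088), T24 replicate 5 (0.054) or T24R2 replicate 3 (0.14). YARS2 (tyrosine, 0.04) and HARS2 (histidine, -0.05) did not pass, and HARS2 was positive without a scaling factor (0.11) or with upper-quartile scaling (0.02). In all, 5 of the 15 tested mitochondrial genes were called higher (33.3%) and 3 lower (20%), beside 24.9% and 26.5% of all tested genes. The median LFC of the class was 0.34. With no scaling factor 7 were called higher and 2 lower, beside 32.2% and 21.2% of all tested genes.

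Summed per library, cytosolic synthetase transcripts went from 3169 ± 47.8 CPM in T24 (SD, n = 5) to 4084 ± 98.6 in T24R2, 128.9% of the T24 level. The mitochondrial sum went from 479.9 ± 10.9 to 573.3 ± 11.5 CPM, 119.5% of T24. The net difference was close to that of IARS2 alone. With IARS2 left out, a check added after seeing the data, the sum was 345.3 ± 7.25 CPM in T24 and 349.1 ± 4.18 in T24R2. This was 101.1% of T24, with overlapping libraries. In that sum falls and rises offset each other. NARS2 went from 50.79 to 20.25 CPM and EARS2 from 44.02 to 27.69, while LARS2 went from 28.01 to 44.95 and TARS2 from 32.62 to 42.34. Leaving single genes out of the cytosolic sum gave 123.8% (without IARS1) to 132.4% (without CARS1). The ratio of the sums ran from 6.406 to 6.742 in T24 and from 6.988 to 7.232 in T24R2, without overlap. The median LFCs of the classes stood in the other order, at 0.28 (cytosolic) and 0.34 (mitochondrial). On levels per kb of exon, the cytosolic median was 24.4 CPM per kb in T24 and 31.6 in T24R2, and the mitochondrial median 2.64 and 3.83. TARS1 had the highest level per kb in both lines (65.8 ± 1.8 and 100.1 ± 4.77). IARS2 stood out within the mitochondrial class, at 32.5 ± 1.16 and 54.2 ± 2.72, ranks 9 and 5 of 36. NARS2 moved from rank 15 in T24 to rank 24 in T24R2. Union exon lengths run long for genes with many annotated isoforms, so levels per kb of such genes are low estimates.

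Since each library measured both enzymes, the cytosolic over mitochondrial ratio of an amino acid does not depend on the scaling between libraries. Of 13 amino acids with both genes, 12 were compared, and the valine pair was not because VARS2 had no counts. In log2 counts per kb, NARS1 over NARS2 was 1.05, 1.15, 0.98, 1.06 and 1.11 in T24 and 3.42, 3.43, 3.68, 3.45 and 3.23 in T24R2. The ratio was higher by 2.37 on the log2 scale in T24R2, with no overlap (p = 0.00794 in an exact two-sided permutation test). This was the only pair in which both enzymes were called in opposite directions.

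The second largest difference was in the serine pair, where SARS1 over SARS2 was 5.86, 6.18, 6.47, 7.07 and 6.40 in T24 and 7.0045, 6.94, 7.84, 7.22 and 7.19 in T24R2. The shift of 0.84 gave p = 0.0238 in the exact two-sided permutation test, but the libraries overlapped and SARS2 rests on few counts. For methionine, MARS1 over MARS2 was 3.52, 3.35, 3.49, 3.25 and 3.96 in T24 and 2.77, 2.99, 3.25, 2.67 and 3.22 in T24R2. Here the mitochondrial enzyme gained on the cytosolic one, by -0.53 on the log2 ratio (exact two-sided permutation test p = 0.0159), with libraries that met at the edges.

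The histidine and alanine pairs had the smallest differences. HARS1 over HARS2 was -0.51, -0.87, -0.59, -0.65 and -0.49 in T24 and -0.54, -0.60, -0.60, -0.68 and -0.66 in T24R2, a shift of 0.01 within the spread of T24 (exact two-sided permutation test p = 0.96). These genes lie head to head on chromosome 5, at chr5:140673035-140691537 (-) and chr5:140691430-140699305 (+), and share 108 exon bases. AARS1 over AARS2 was 2.53, 2.62, 2.60, 2.43 and 2.30 in T24 and 2.47, 2.36, 2.61, 2.39 and 2.42 in T24R2. Both alanine enzymes were higher by a like amount, and their ratio shifted by -0.04 (exact two-sided permutation test p = 0.532).

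Of the remaining pairs, RARS (-0.51) and LARS (-0.29) shifted toward the mitochondrial enzyme and IARS (0.19) toward the cytosolic one with no overlap of libraries (exact two-sided permutation test p = 0.00794 each). TARS (0.22) and YARS (0.21) gave 0.0397 each in that test, and each lost it when single libraries were left out. WARS (-0.16) and CARS (0.08) overlapped. Over the 12 pairs the ratio of T24R2 lay wholly above T24 in 2, wholly below in 2 and overlapped in 8, and these p-values are not adjusted over the pairs. Both enzymes had a positive LFC in 7 pairs and opposite signs in 3.

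**Figure D3:**
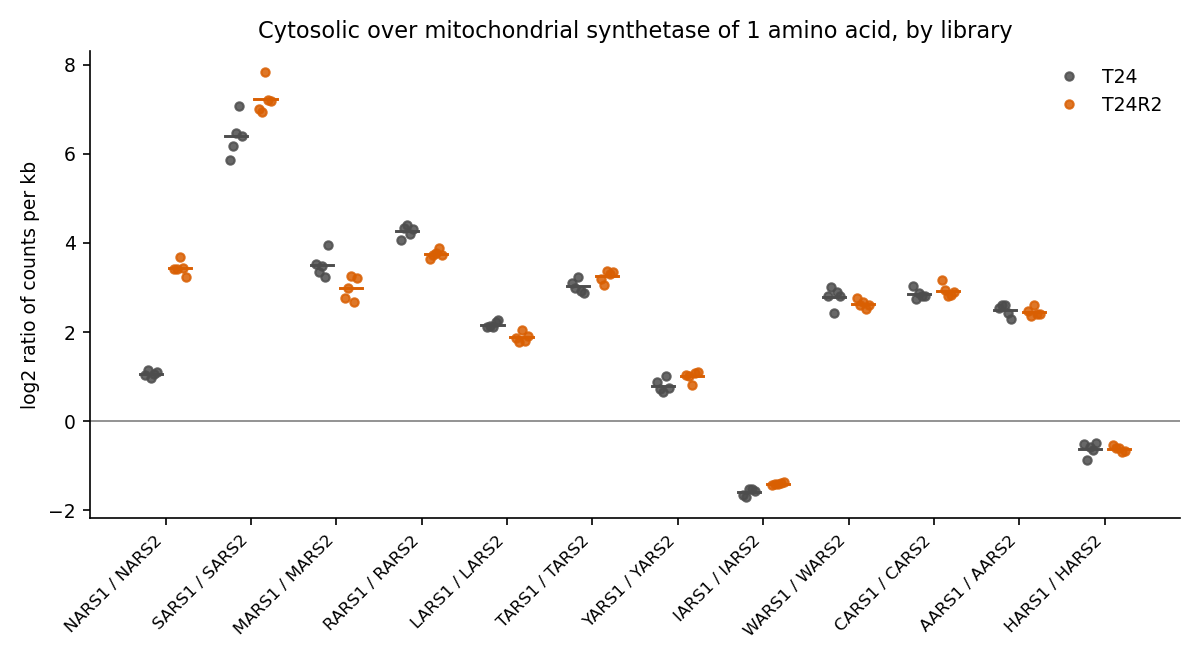
Each point is the log2 ratio of counts per kb of exon, cytosolic over mitochondrial enzyme, in 1 library, with 12 amino acids on the horizontal axis ordered by the size of the difference between the log2 fold changes and short lines at the mean of 5 libraries. The NARS points of T24 lie between 0.98 and 1.15 and those of T24R2 between 3.23 and 3.68, while the HARS points coincide.

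The cytosolic genes were also grouped by a known response to ATF4. For this list and those below, 24.9% of all tested genes were called higher and 26.5% lower. Of 12 synthetases listed as ATF4-responsive, 5 were called higher (NARS1, IARS1, EPRS1, SARS1, TARS1) and 0 lower. In 11 of the 12 (91.7%) every T24R2 library lay above every T24 library, beside 29.9% of all tested genes. The exception, CARS1, lay wholly below. Their median LFC was 0.41. Of the 8 other cytosolic genes (HARS1, KARS1, QARS1, RARS1, VARS1, FARSA, FARSB, TARS3), 0 were called in either direction by edgeR, 2 passed the adjusted p as higher and 2 as lower, all 8 had overlapping libraries, and the median LFC was 0.01. The lists were drawn up with results of these data known, and the difference between them was not tested.

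Outside the synthetases, 7 of 13 genes of the amino acid response were called higher and 1 lower (7 higher and 3 lower by the adjusted p of edgeR alone), with a median LFC of 0.70. PSAT1 and PHGDH, enzymes of serine synthesis, went from 93.8 ± 5.17 to 375.1 ± 9.12 CPM (LFC 1.9997) and from 150.2 ± 8.95 to 362.6 ± 14.6 CPM (LFC 1.27), and SESN2, a stress-induced regulator of mTORC1, had an LFC of 1.72. ATF4, singled out after its values were seen, was at 533.4 ± 27.8 CPM in T24 and 397.1 ± 20.3 in T24R2, an LFC of -0.43 that passed the adjusted p of edgeR as lower (3.4e-11) but not the size limit, with every T24R2 library (at most 431.9) below every T24 library (at least 494.7). WARS1 is known as an interferon-induced synthetase as well. Of 9 tested interferon response genes 0 were called higher and 5 lower in edgeR (adjusted p under 0.05 for 0 higher and 8 lower, median LFC -0.54), among them ISG15 (-0.89), GBP2 (-1.54) and IDO1 (-1.73), whereas WARS1 stood at 107.7 ± 3.65 and 145.4 ± 6.99 CPM.

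The multisynthetase complex moved in part. Of its 7 synthetases, IARS1 and EPRS1 were called higher, LARS1 and MARS1 passed the adjusted p alone, KARS1 and RARS1 passed it as lower, and the median LFC was 0.37. Its scaffold proteins AIMP1 (LFC 0.31) and AIMP2 (0.26) passed the adjusted p of edgeR without being called, and EEF1E1 (0.13) did not pass. By the fold of the catalytic domain, 6 of 18 tested class I enzymes were called higher and 2 lower (median LFC 0.35), and 4 of 17 class II enzymes higher and 1 lower (0.21). EPRS1, among the 6, was counted in class I alone, although it also charges proline tRNA and the proline enzyme PARS2 stands in class II.

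Genes that act next to the mitochondrial synthetases showed a mixed picture. Mitochondria make glutaminyl-tRNA from the product of EARS2 through an amidotransferase, and of its subunits QRSL1 was called higher (11.9 ± 1.75 to 23.98 ± 2.37 CPM, LFC 1.02) while EARS2 was called lower. GATC (0.15) passed the adjusted p alone and GATB did not pass. MTFMT, which formylates the methionyl-tRNA made by MARS2, was called higher (0.54), as was MARS2. Among 8 tested mitochondrial translation factors 3 were called higher and 0 lower, namely the initiation factor MTIF2 (1.04), the ribosome recycling GTPase GFM2 (0.77) and the release factor MTRF1L (0.89), and by the adjusted p alone 5 were higher and 1 lower. In the cytosol, 0 of 5 tested elongation factors were called in edgeR, with EEF1A1 at 0.32, EEF1A2 at 0.18 and EEF1B2 at -0.28 passing the adjusted p. Of 7 editing and special aminoacylation genes, the D-aminoacyl-tRNA deacylases split, with DTD2 called higher (0.68) and DTD1 lower (-0.82).

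**Figure D4:**
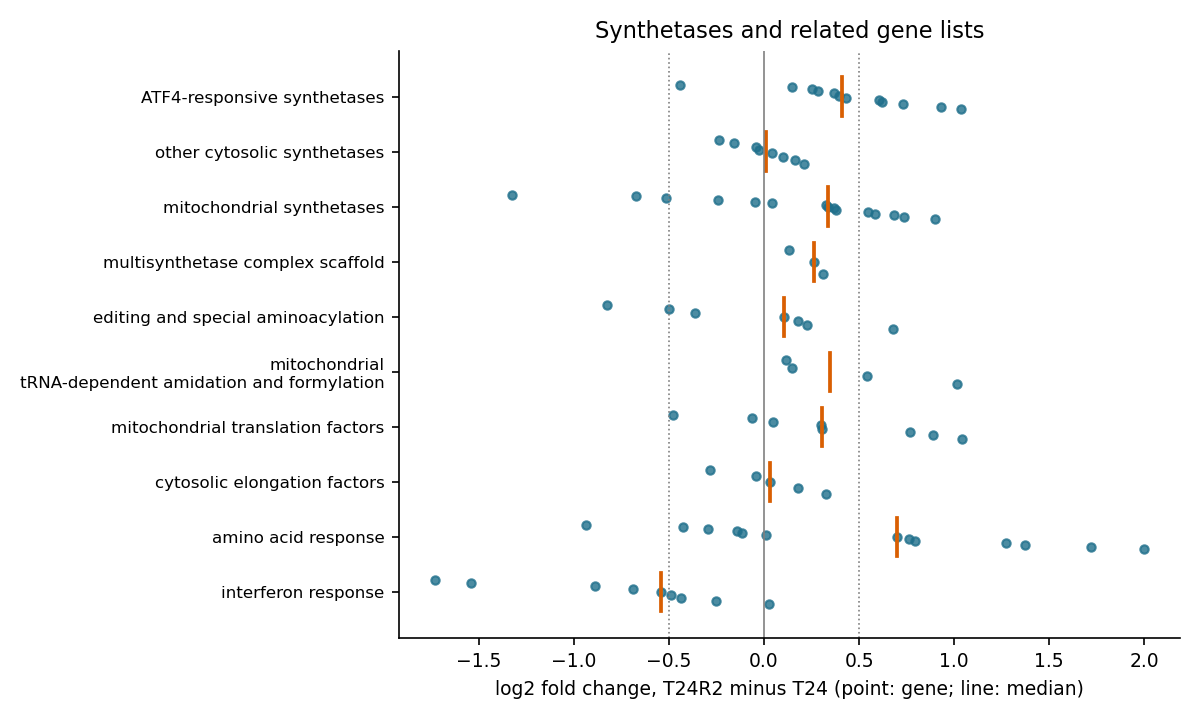
The horizontal axis gives log2 fold changes (T24R2 minus T24) of single genes as points and the median of each list as a line, for the synthetases and 7 related lists on the vertical axis; dotted lines mark the 0.5 limit. ATF4-responsive synthetases have a median of 0.41, other cytosolic synthetases 0.01, amino acid response genes 0.70 and interferon response genes -0.54.

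The promoters were searched for the core of the element bound by ATF4 with C/EBP factors (TGATGNAA) and for the core of the NRF1 element (GCATGCGC), a factor of nuclear genes for mitochondrial proteins. Both strands of the 250 bases before the RefSeq start (GRCh38.p14) were read for the 30 members with an entry. The first core was found in 4 members, beside 3.89% of 27305 genes with promoters, and the second in 2, beside 3.22%. The windows of 30 bases around the matches are shown because 3 of them belong to ATF4-responsive genes, and the capitals mark the match, which on the given strand can be its reverse complement.
IARS1, chr9:92293698-92293727 (-): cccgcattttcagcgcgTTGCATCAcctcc
AARS1, chr16:70289675-70289704 (-): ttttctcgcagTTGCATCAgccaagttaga
GARS1, chr7:30594834-30594863 (+): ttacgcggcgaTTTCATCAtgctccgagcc
YARS2, chr12:32756076-32756105 (-): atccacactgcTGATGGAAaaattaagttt
MARS2, chr2:197705333-197705362 (+): gacccggctgcGCATGCGCctctcacacgt
YARS2, chr12:32755959-32755988 (-): aaccgtctcggGCATGCGCagaaaaacact
The windows of IARS1, AARS1 and GARS1 fall within annotated exons of the count tables, and those of YARS2 and MARS2 lie outside them. In MARS2 a match on the other strand overlaps the one shown. The genes with the first core ranged in LFC from 0.04 (YARS2) to 0.93 (IARS1), and NARS1, EPRS1, SARS1 and TARS1, called higher, had no match in this window.

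The surroundings of the genes were described by the median LFC of the tested genes within 2 Mb. The sign of this median was that of the synthetase itself for 28 of 35 members. The same share over all tested genes was not computed, so this count has no reference. Some medians lay near 0, as for YARS2 (0.0005, same sign) and AARS1 (-0.01, other sign), and the signs of HARS1, HARS2 and VARS1 turned with the scaling. The median around WARS2 (0.3442) equalled the LFC of WARS2-AS1, which overlaps it on the opposite strand. Across the 35 the Pearson correlation was 0.54 and the Spearman correlation 0.65, over points that share libraries and, for near neighbours, window genes. EPRS1 (chr1:219968600-220046530, -) and IARS2 (chr1:220094132-220148041, +) start 47602 bases apart, so each lies in the window of the other. Their LFCs were 0.73 and 0.74, beside medians of 0.74 and 0.73 over 15 genes each. The median around EPRS1 (0.7361) equalled the LFC of IARS2 itself (0.7361), so for EPRS1 the likeness is to another member. TARS1 (0.61) also lay near its surroundings (0.54). By contrast the surroundings of NARS1 had a median of 0.18, those of IARS1 0.02 and those of LARS2 0.10, far under the genes' own values. NARS2 stood well below its surroundings (-0.31), as EARS2 did (-0.12). CARS2 lay in the lowest surroundings of all, with a median of -2.22 over 16 genes. The window mattered for LARS1 and RARS1, whose surroundings went from -0.35 and -0.55 within 2 Mb to 0.18 and 0.49 within 5 Mb. It also mattered for WARS2 (0.34 to 0.66) and NARS1 (0.18 to 0.46), among others. Within 5 Mb the surroundings of IARS1 and LARS2 had a median of 0.17 each. NARS1, IARS1 and LARS2 still lay above their surroundings in this wider window.

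**Figure D5:**
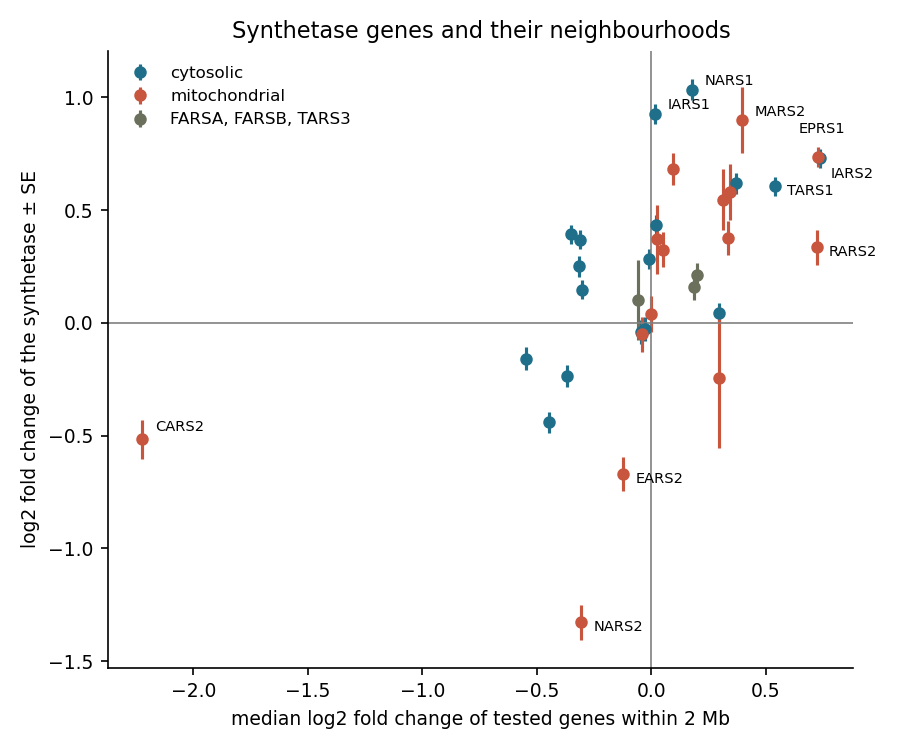
Each of the 35 points is a tested synthetase, with the median log2 fold change of tested genes within 2 Mb on the horizontal axis and its own log2 fold change with SE on the vertical axis. EPRS1 and IARS2 lie together at the right, NARS1 and IARS1 lie above surroundings of 0.18 and 0.02, NARS2 lies lowest and CARS2 lies far left at -2.22.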

How the data were processed

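RNA-seq of 5 T24 and 5 T24R2 libraries was analysed from the tables the authors deposited, which hold raw fragment counts per gene. Per the labels, the file headers and the study's methods, the authors used STAR 2.7.0 for alignment against hg38, samtools 1.10 to keep unique, non-duplicate alignments, and counted fragments over GENCODE release 39 genes by featureCounts 2.0.1, strand option 1; removing duplicates may lower the counts of abundant transcripts. Ensembl gene identifiers of the tables were paired with symbols for 61369 of 61533 genes. Here counts were scaled by TMM and tested with edgeR 4.0.16 (default filter on low counts, quasi-likelihood test, Benjamini-Hochberg over 16181 genes). DESeq2 1.42.0 and limma-voom 3.58.1 served as alternatives, beside other scalings, filters and thresholds and each library left out. Single values were compared with exact two-sided permutation tests (smallest p 0.00794). Opposite-strand overlap above 10% of exon bases was present for YARS2 (18.1%), MARS1 (12.4%) and WARS1 (10.6%). The edgeR step was tested on simulated data with known answers.

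The members and lists were chosen with earlier results of these data known. Values in every library were given for up to 4 called members with the largest rise and up to 4 with the largest fall in each class, or the member with the largest change where none was called, and for the 3 pairs with the largest and 2 with the smallest difference; of each related list without members, up to 3 genes with the smallest adjusted p were named. Some genes of the related lists are not reported here.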

Additional observations from a re-analysis of the deposited data

Results flagged for a closer look

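In 7 of 70 gene and line combinations, 1 of the 5 libraries stood apart from the other 4 by Dixon's criterion at 95%, where chance would give about 3.5. AARS2 was at 33.0 CPM in T24R2 replicate 3 (others 36.58 to 37.99), and IARS2 at 243.6 in the same library (215.5 to 223.0). In T24, FARSA was at 87.6 in replicate 1 (76.27 to 79.06), HARS2 at 43.7 in replicate 2 (32.68 to 35.71), IARS2 at 143.0 in replicate 2 (131.4 to 133.6), WARS2 at 12.3 in replicate 3 (8.206 to 9.341) and WARS1 at 101.4 in replicate 5 (108.3 to 110.7). Of these genes, HARS2 turned to a positive LFC (0.02) when T24 replicate 2 was left out.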

How the results depend on the processing

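Over 10 alternative fits and 10 fits with a library left out, 23 of 35 synthetases kept their sign and call, and no called gene changed sign. With no minimum on size, 22 members passed as higher and 6 as lower (11 and 3 cytosolic, 9 higher mitochondrial), and above an LFC of 1 there was 1 higher (cytosolic; 0 mitochondrial) and 1 lower (mitochondrial). Without a scaling factor 8 cytosolic genes were called higher and the class medians were 0.45 and 0.50, against 0.36 and 0.41 with upper-quartile scaling; LARS1, MARS1, PARS2, TARS2 and WARS1 became called without scaling, and WARS1 also with upper-quartile scaling (0.51). Signs turned for HARS1 (0.123 without scaling, 0.034 upper-quartile), HARS2 (0.114 and 0.0242, and -0.0909 to 0.0196 over libraries left out), VARS1 (0.137 and 0.0472, 0.00369 at a mean of 100 counts, -0.0527 to 0.00874 over libraries left out), RARS1 (0.00553 without scaling) and YARS2 (-0.0113 to 0.0881 over libraries left out), and the shift of the HARS ratio ran from -0.0573 to 0.0376 over libraries left out. With a library left out, 9 to 10 members were called higher and 2 to 3 lower. The cytosolic median was then 0.26 to 0.30, lowest without T24 replicate 5, and the mitochondrial median 0.29 to 0.36, lowest without T24 replicate 3. The replicate block gave 10 higher and 3 lower, and changed no call; replicate numbers did not pair the libraries (correlations -0.021 to 0.0155, and 3 of 10 libraries closest to their own number). Depth limits SARS2, TARS3, MARS2, PARS2 and FARS2 most.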
